A study of Mus musculus with 6 samples.

Results

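Rab GTPases were followed in Melan-a cells, an immortal line of pigmented mouse melanocytes, after a small interfering RNA against Dicer. The rule named 9 genes: Rab22a, Rab17, Rab14, Rab13, Rab23, Rab25, Rab33b, Rab3b and Rabggtb. A gene entered with its probe set of highest mean level among those whose platform annotation gave exactly 1 gene symbol. By this rule 8 of the 9 genes had a value. The 16383 probe sets could be named for 7655 genes in all, a number that also counts 170 probe sets whose several symbols are spellings of 1 gene. The only probe set listing Rabggtb also lists Snord45c, a small nucleolar RNA gene, so neither gene was given its value. Each of the 8 genes had 1 probe set.

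The siDicer group held 3 arrays of cells transfected with siDicer, and the siScr group held 3 arrays of cells transfected with a control siRNA. Both groups were female C57BL/6 Melan-a cells grown with the phorbol ester TPA and lysed 24 hours after transfection, and RNA was hybridised to Clariom D mouse arrays. Replicate numbers 1, 2 and 3 had passages 47, 54 and 56 in both groups, so each siDicer array had a siScr array of its own passage. All 6 arrays come from a single immortal line, and Dicer1 was not analysed here, so the groups rest on the labels.

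Rab proteins are small GTPases that mark membrane compartments and direct vesicle budding, transport and fusion. They are switched on by exchange factors, switched off by GTPase-activating proteins, and anchored to membranes by geranylgeranyl groups that an enzyme containing the Rabggtb subunit attaches. In melanocytes, Rab proteins sort cargo to melanosomes and carry these pigment granules to the cell edge.

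Promoter sequences of the gene with the largest difference among the 8, Rab22a, and of the melanocyte filopodium gene Rab17 are shown for their unlike base composition. They are RefSeq windows of build GRCm38.p6, from 250 bases before to 50 bases after the annotated start. Rab22a lies at chr2:173659595-173659894 on the plus strand and Rab17 at chr1:90967618-90967917 on the minus strand. Capitals mark GGGCGG, the GC box, on either strand, with overlapping matches joined.
Rab22a: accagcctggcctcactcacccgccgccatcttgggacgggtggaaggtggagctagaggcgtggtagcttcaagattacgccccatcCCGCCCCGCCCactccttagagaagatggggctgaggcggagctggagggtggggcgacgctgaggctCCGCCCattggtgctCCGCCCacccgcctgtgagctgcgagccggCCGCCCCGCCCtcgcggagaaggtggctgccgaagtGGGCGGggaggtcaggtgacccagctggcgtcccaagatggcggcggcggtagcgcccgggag
Rab17: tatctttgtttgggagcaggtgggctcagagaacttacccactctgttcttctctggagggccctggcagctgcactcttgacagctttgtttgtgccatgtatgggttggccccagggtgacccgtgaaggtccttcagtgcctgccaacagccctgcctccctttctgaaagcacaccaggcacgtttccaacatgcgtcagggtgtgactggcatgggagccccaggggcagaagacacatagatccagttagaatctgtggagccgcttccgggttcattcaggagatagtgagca
The Rab22a window held 7 GC boxes, counting overlapping ones, and 27 CpG pairs, with 70.7% G or C. Of 32851 RefSeq promoter windows of this length, 35.7% held at least 1 GC box and 0.627% held at least 7. The Rab17 window held no GC box and 5 CpG pairs, with 55.7% G or C, where the median over all windows was 7 CpG pairs and 52.7%. All 9 genes of the rule matched the promoter table, and 7 of them held a GC box at 1 or more annotated starts. CACGTG was present in 1 of the 9 genes, Rab23, and CATGTG on either strand in 1, Rab13, against 7.15% and 14.2% of all windows. A gene counted if any of its starts held the motif, with 12 windows for the 9 genes. Counts of genes and shares of windows are thus unlike measures. These matches are descriptions of letters, and no binding was measured.

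None of the 8 Rab genes passed the threshold between siDicer and siScr cells, which was an adjusted p under 0.05 in limma with replicate number as a block. Over all probe sets 163 passed, or 0.995%, with 124 (0.757%) higher and 39 (0.238%) lower in siDicer. After quantile normalization that split was 54 higher and 30 lower. Rab22a was the only one of the 8 with an unadjusted p under 0.05, a limit that 15.7% of all probe sets met, and that 6.85% of all probe sets met with siDicer lower. The 8 differences had a median of 0.00 log2 units, against -0.01 over all probe sets, and 5 of the 8 were above 0, against 44.4% of all probe sets. Groups did not overlap for 1 of the 8 genes and for 15.9% of all probe sets, which is near the share of the 8. All 8 had a mean log2 signal above 4.21, the 95th percentile of 429 olfactory and vomeronasal receptor genes, which served as a gauge of background. So did 58.1% of all probe sets. The brightest receptor gene reached 7.05, above both group means of Rab13, Rab17, Rab23, Rab25 and Rab3b.

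Rab22a, which acts on early and recycling endosomes and in melanocytes takes part in delivering cargo to maturing melanosomes, had the largest difference of the 8. Its log2 signal was 7.92, 8.05 and 7.96 in siDicer replicates 1, 2 and 3, against 8.24, 8.28 and 8.25 in siScr replicates 1, 2 and 3. Every siDicer array lay below every siScr array. The means were 7.98 ± 0.07 in siDicer and 8.26 ± 0.02 in siScr cells (SD, n = 3 each). The 3 pairs differed by -0.31, -0.23 and -0.29, so the size of the difference varied little between pairs. The fitted difference was -0.28 log2 units with a standard error of 0.05, or 1.21-fold lower in siDicer, and its 95% interval ran from -0.41 to -0.15. The adjusted p was 0.09 in limma with the block and 0.164 without it. It ranked 336 of 16383 by p. Groups that do not overlap with siDicer lower were found for 8.29% of all probe sets. The exact permutation test of the labels, which ignores the pairs, gave p = 0.1, two-sided, the smallest that 3 arrays against 3 allow. The exact sign change test within pairs gave p = 0.25, the smallest that 3 pairs allow.

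The smallest absolute change among the 163 probe sets past the threshold was 0.35 log2 units, larger than that of Rab22a. Refitted on fewer probe sets, which changes the variance estimated across probe sets and the adjustment, Rab22a did pass. Its adjusted p in limma was 0.0289 over probe sets with 1 symbol, of which 3.73% passed. Over those with a level above the median it was 0.0405, and 4.74% passed. Rab22a also passed with an intensity trend in the variance (adjusted p = 0.0441 in limma), where 1.84% of probe sets did. At a threshold of 0.1 Rab22a passed too, as did 2.31% of probe sets. Over the 12 alternatives that refitted it, the adjusted p ran from 0.0289 to 0.299, and the difference from -0.31 to -0.26.

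**Figure D1:**
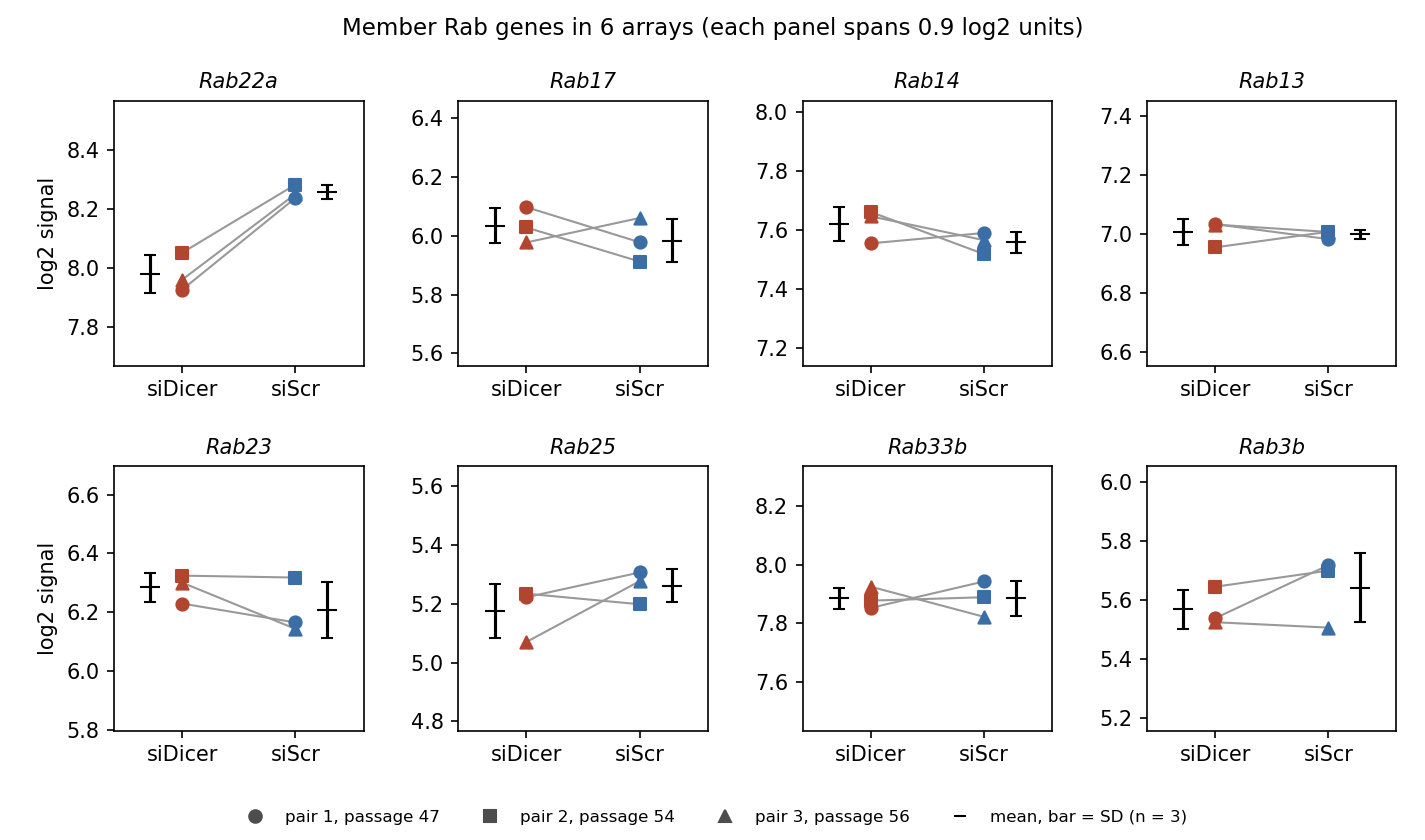
Log2 signal (vertical axis) of the 8 member genes in siDicer (left of each panel) and siScr cells, 1 point per array, with marker shape for the pair and passage and grey lines joining arrays of a pair. Black bars show the mean and SD of 3 arrays. Rab22a is the panel where the 3 siDicer arrays, at 7.92 to 8.05, lie below the 3 siScr arrays, at 8.24 to 8.28; elsewhere the groups overlap.

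Rab17, an endosomal Rab of polarised epithelium that has also been tied to filopodia and melanosome release in melanocytes, had a log2 signal of 6.10, 6.03 and 5.98 in siDicer replicates 1, 2 and 3. In siScr replicates 1, 2 and 3 it was 5.98, 5.91 and 6.06. The groups overlapped, and siDicer was higher at passages 47 and 54 and lower at passage 56. The means were 6.03 ± 0.06 in siDicer and 5.98 ± 0.07 in siScr cells (SD, n = 3 each). The difference of 0.05 had a 95% interval from -0.11 to 0.21 log2 units, or 0.93-fold to 1.15-fold (limma, adjusted p = 0.738). That interval allows a modest difference either way, and without replicate 3 the difference was 0.12.

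Rab14, which works between endosomes and the trans-Golgi network, had log2 signals of 7.55, 7.66 and 7.65 in siDicer replicates 1, 2 and 3, against 7.59, 7.52 and 7.57 in siScr replicates 1, 2 and 3. The pairs differed in sign, with siDicer lower at passage 47 and higher at passages 54 and 56. The difference was 0.06 with a 95% interval from -0.08 to 0.21 (limma, adjusted p = 0.648).

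Rab25, a Rab11-related protein of epithelial recycling endosomes, was at 5.22, 5.23 and 5.07 in siDicer replicates 1, 2 and 3 and at 5.31, 5.20 and 5.28 in siScr replicates 1, 2 and 3. The lowest of the 6 arrays was siDicer replicate 3, and the groups overlapped. The difference was -0.09 with a 95% interval from -0.24 to 0.07 (limma, adjusted p = 0.57). Of 17 genes listed as markers of keratinocytes and other epithelium, 6 were measured and 0 passed, with 4 above the receptor gauge. Their mean log2 signal per array lay between 4.82 and 4.86 in siDicer and between 4.85 and 4.90 in siScr cells.

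Rab13, which serves tight junction assembly, was at 7.03, 6.95 and 7.03 in siDicer replicates 1, 2 and 3, against 6.98, 7.01 and 7.01 in siScr replicates 1, 2 and 3. The difference of 0.01 had a 95% interval from -0.13 to 0.14 (limma, adjusted p = 0.962). The siScr arrays were closer together than the siDicer arrays, with SDs of 0.05 in siDicer and 0.01 in siScr cells.

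Rab33b, a Golgi Rab that binds the autophagy protein Atg16l1, averaged 7.88 ± 0.04 in siDicer and 7.88 ± 0.06 in siScr cells (SD, n = 3 each). Its 3 pairs gave -0.09, -0.01 and 0.10, which cancel in the mean, and the 95% interval ran from -0.15 to 0.15 log2 units (limma, adjusted p = 0.999). The differences of Rab13 and Rab33b lay so close to 0 that both turned negative after quantile or cyclic loess normalization.

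Rab23, a negative regulator of hedgehog signalling, was at 6.23, 6.32 and 6.30 in siDicer replicates 1, 2 and 3 and at 6.17, 6.32 and 6.14 in siScr replicates 1, 2 and 3. It was higher in siDicer in all 3 pairs, by 0.06, 0.01 and 0.16, but the groups overlapped. The difference of 0.08 had a 95% interval from -0.06 to 0.22 (limma, adjusted p = 0.565).

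Rab3b, a Rab of regulated secretion, was at 5.54, 5.64 and 5.52 in siDicer replicates 1, 2 and 3, against 5.72, 5.70 and 5.51 in siScr replicates 1, 2 and 3. The passage 56 pair was lowest in both groups, and the pairs differed by -0.18, -0.05 and 0.02. The difference of -0.07 had a 95% interval from -0.22 to 0.08 (limma, adjusted p = 0.607). For the 7 genes other than Rab22a, adjusted p-values were between 0.565 and 0.999 with the block and between 0.719 and 0.999 without it, and the 95% intervals reached at most 1.18-fold lower, for Rab25, and 1.16-fold higher, for Rab23.

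The arrays gave values for another 4 Rab GTPase genes, and 0 of 4 passed the threshold, while 3 had an unadjusted p under 0.05 in limma, all with siDicer higher. The corresponding share over all probe sets was 8.81% for siDicer higher. Among the 8191 probe sets with a level above the median, refitted in limma, 1935 met this limit in either direction. Rab2a, which works in traffic from the endoplasmic reticulum to the Golgi and in lysosome fusion, had values of 10.42, 10.60 and 10.58 in siDicer replicates 1, 2 and 3. In siScr replicates 1, 2 and 3 it had 10.18, 10.34 and 10.29. Every siDicer array lay above every siScr array, as it did for 7.57% of all probe sets. Pair differences were 0.24, 0.26 and 0.29, and the fitted difference was 0.26 with a standard error of 0.05 and a 95% interval from 0.13 to 0.39. The adjusted p in limma was 0.1 with the block and 0.283 without it, and it ran from 0.0306 to 0.319 over 12 alternatives. Rab2a passed in the same settings as Rab22a: probe sets with 1 symbol (0.032), level above the median (0.045), the intensity trend (0.0306) and the threshold of 0.1, which its adjusted p met only before rounding.

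Rab7b, a Rab of transport between late endosomes and the trans-Golgi network, varied more between pairs than between groups. Its values were 6.32, 6.86 and 6.62 in siDicer replicates 1, 2 and 3, against 6.13, 6.67 and 6.30 in siScr replicates 1, 2 and 3. The groups overlapped, yet within each pair siDicer was higher, by 0.19, 0.19 and 0.32. Its adjusted p was accordingly 0.147 with the block and 0.676 without it (limma), for a difference of 0.23. Rab29, a Rab of the trans-Golgi network that recruits the kinase Lrrk2, was named from a probe set that also lists an older spelling of the gene, and averaged 7.74 ± 0.06 in siDicer and 7.57 ± 0.09 in siScr cells (SD, n = 3 each), a difference of 0.17 (limma, adjusted p = 0.283). Its groups did not overlap. Rab42 lay between 3.89 and 4.07 in siDicer and between 3.88 and 4.10 in siScr cells, below the receptor gauge, and its difference of -0.03 had an adjusted p of 0.831 in limma.

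**Figure D2:**
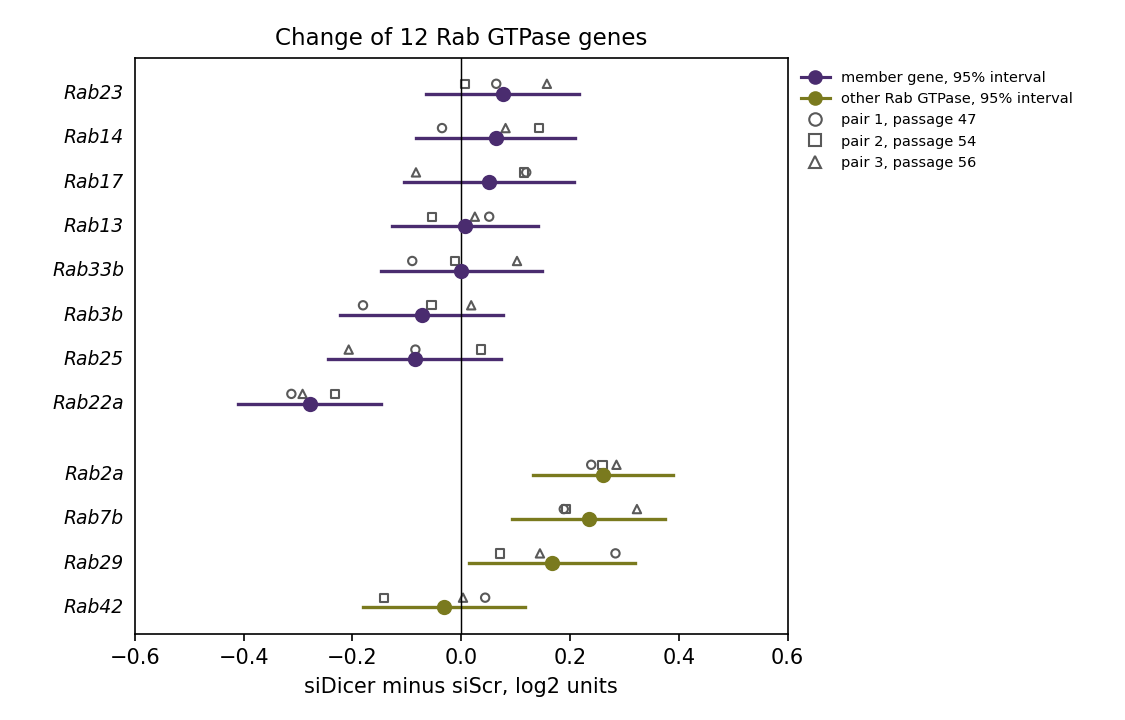
Fitted log2 difference, siDicer minus siScr (horizontal axis), of 12 Rab GTPase genes with 95% intervals from limma with the replicate block; open symbols are the differences of the single pairs. Rab22a, at -0.28, is the only member gene whose interval excludes 0, while the intervals of Rab2a, Rab7b and Rab29 lie above 0; none of the 12 had an adjusted p under 0.05.

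**Figure D3:**
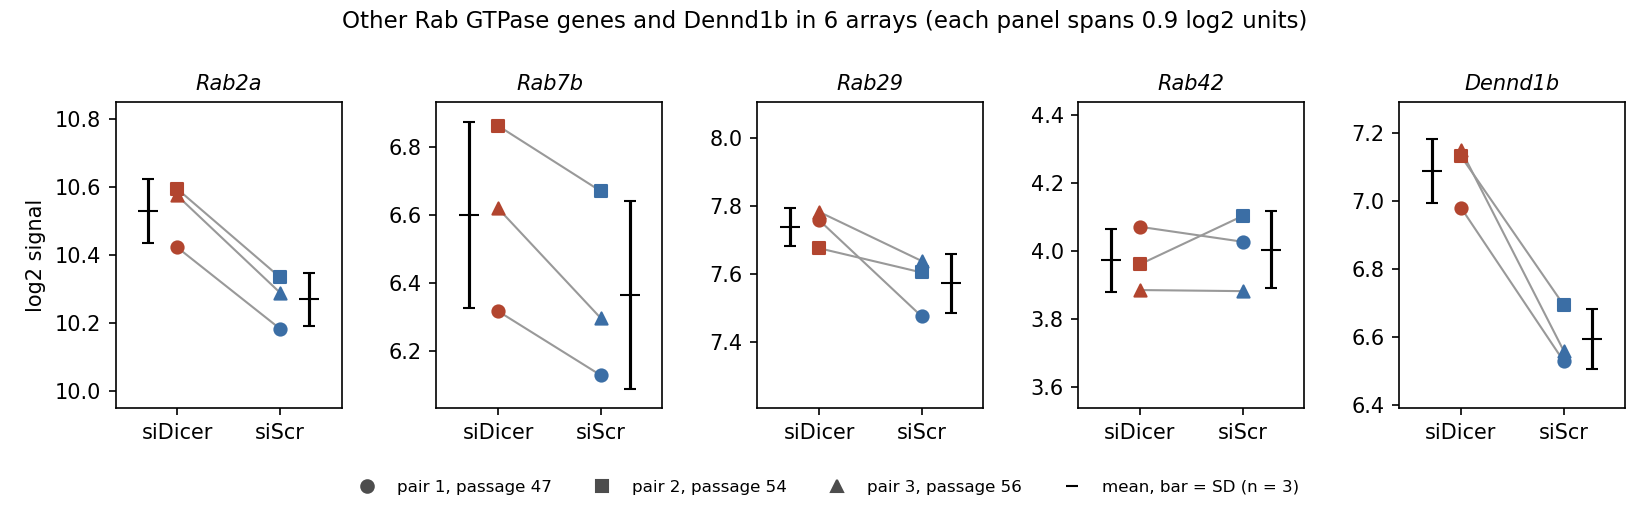
Log2 signal (vertical axis) of 4 other Rab GTPase genes and of the exchange factor Dennd1b in siDicer (left of each panel) and siScr cells, 1 point per array, drawn as in the plot of member genes. The grey lines of Rab7b run parallel at different heights for the 3 pairs, and the groups of Dennd1b, at 6.98 to 7.15 in siDicer and 6.53 to 6.69 in siScr, do not overlap.

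Of the regulators and partners of Rab proteins, 28 genes were measured over 4 lists, and 1 rose while 27 missed the threshold. Over all probe sets 0.757% passed with siDicer higher. The gene that rose was Dennd1b, an exchange factor that activates Rab35. Its log2 signal was 6.98, 7.13 and 7.15 in siDicer replicates 1, 2 and 3, against 6.53, 6.69 and 6.56 in siScr replicates 1, 2 and 3. All siDicer arrays lay above all siScr arrays. The change was 0.49 with a standard error of 0.06 and a 95% interval from 0.35 to 0.64, or 1.41-fold (limma, adjusted p = 0.0319 with the block and 0.0572 without it). Without replicate 2 or replicate 3 the adjusted p was 0.168 and 0.136, with changes of 0.52 and 0.45. Over 12 alternatives it ran from 0.00821 to 0.168.

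Of 36 listed exchange factors 10 were measured: 1 rose, Dennd1b, against 0.757% of all probe sets, and 9 missed the threshold. The list's median difference was 0.12, and 8 of 10 genes were above 0, against 44.4% of all probe sets. All 10 lay above the receptor gauge, as did 58.1% of all probe sets, so the share of 44.4% also covers dimmer ones. Dennd2c, an exchange factor for Rab9, was at 5.69 ± 0.05 in siDicer and 5.42 ± 0.08 in siScr cells (SD, n = 3 each), a difference of 0.26 (limma, adjusted p = 0.135). Dennd1a, which like Dennd1b acts on Rab35, had 2 probe sets that disagreed, with differences of 0.14 in the brighter and -0.20 in the dimmer one.

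Of the GTPase-activating proteins 9 were measured and 0 passed, with a median of 0.09 and adjusted p from 0.175 to 0.94 in limma. All 9 lay above the receptor gauge. Above 0 were 8 of 9, against 44.4% of all probe sets, dim ones included. After quantile normalization Rab3gap1 and Tbc1d20 turned below 0 as well, at -0.006 and -0.005. At an unadjusted p under 0.05 there were 4 of 9, all with siDicer higher, against 8.81% of all probe sets. The exchange factors had 4 of 10, also all higher. These include Dennd1a, whose dimmer probe set was lower in all 3 pairs (limma with the block, unadjusted p = 0.0154). Without the block the counts were 4 of 9 and 2 of 10. Of the 8191 probe sets with a level above the median, refitted in limma, 1935 met an unadjusted p under 0.05 in either direction. Among the GTPase-activating proteins the smallest p belonged to Tbck, a protein with kinase-like and TBC domains. It averaged 8.13 ± 0.07 in siDicer and 7.92 ± 0.02 in siScr cells (SD, n = 3 each). Rabgap1l had a difference of 0.16 and Tbc1d2, which inactivates Rab7, one of 0.21. The non-overlapping genes with siDicer higher were 4 of 10 exchange factors and 5 of 9 GTPase-activating proteins, against 7.57% of all probe sets and 11.4% of those with a level above the median. The lists were assembled with earlier results of these data known, so no test was made of these counts.

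Rab effectors had 5 measured genes of 46 listed, 0 past the threshold and a median of -0.07. Golga2, the Golgi matrix protein GM130 that binds Rab1, differed by 0.18 (limma, adjusted p = 0.199). Mlph, melanophilin, which links Rab27a on melanosomes to myosin Va, averaged 10.21 ± 0.16 in siDicer and 10.33 ± 0.13 in siScr cells (SD, n = 3 each), and its groups overlapped (limma, adjusted p = 0.419). Rabepk differed by -0.08 (limma, adjusted p = 0.491).

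Of 15 listed genes for prenylation and Rab recycling 4 were measured and 0 passed, with adjusted p from 0.319 to 0.957 in limma and none at an unadjusted p under 0.05. They were Chml, an escort protein that presents Rab proteins for prenylation, with a difference of -0.12, and Icmt, a methyltransferase of prenylated cysteines, with -0.01. The others were Rabif, a Rab chaperone, with -0.03, and Zmpste24, a protease that processes farnesylated proteins, with 0.14.

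**Figure D4:**
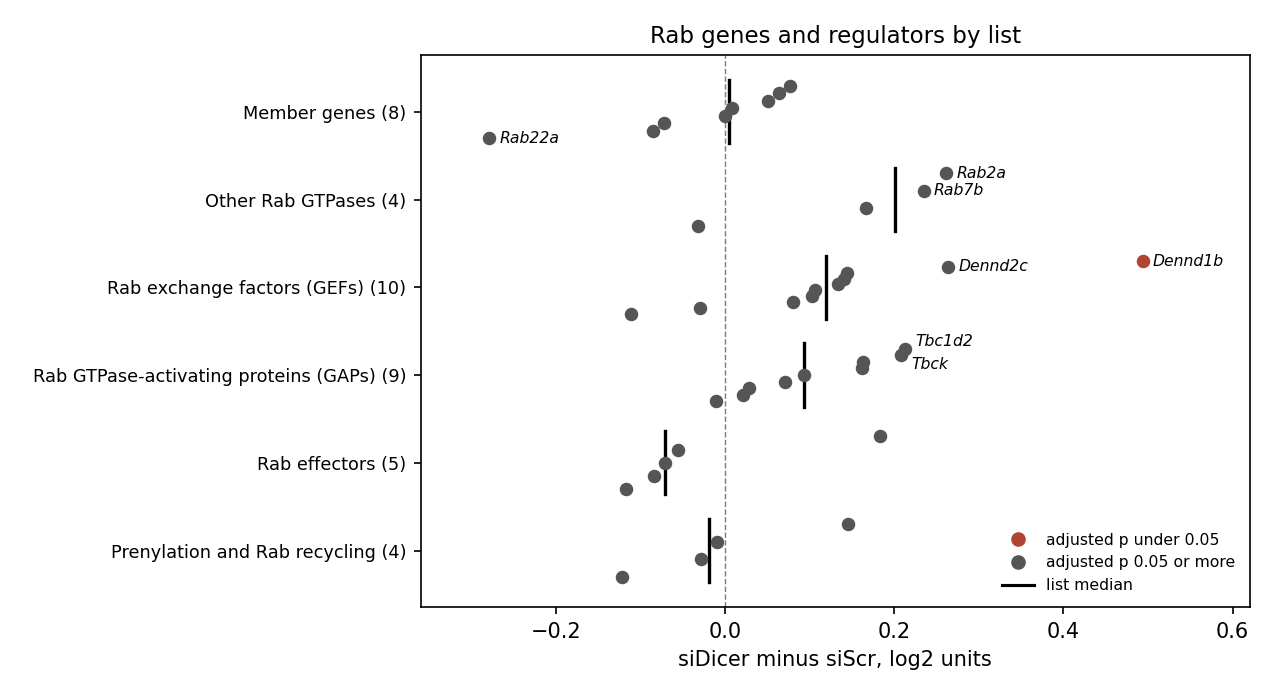
Fitted log2 difference, siDicer minus siScr (horizontal axis), of each gene in the Rab lists (rows, number of measured genes in parentheses), with black bars at list medians. Dennd1b, at 0.49, is the point past an adjusted p of 0.05; the list medians of the exchange factors (0.12) and GTPase-activating proteins (0.09) lie above 0 and that of the effectors (-0.07) below.

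Over the 6 arrays, the patterns most like that of Rab22a among 5136 other genes above the receptor gauge with a probe set of exactly 1 symbol were those of Cep170, a centrosomal protein, with Pearson r = 0.995 (Spearman rho = 0.943), Suco with 0.987 (1.00) and Tmem131 with 0.984 (0.829). Suco and Tmem131 fell, by 0.50 and 0.92 on the log2 scale (limma, adjusted p of 0.0319 and 0.0209 with the block, 0.0773 and 0.00821 without it), and Cep170 differed by -0.33 (adjusted p = 0.059). For Rab17 the highest Pearson r were 0.979 for Gm22889, 0.977 for 1700112H15Rik and 0.952 for Gm11009, with Spearman rho of 0.943, 0.886 and 0.943, and none of these passed (limma, adjusted p from 0.43 to 0.804). The arrays share passages in pairs and a common siRNA contrast, so these values are descriptions over 6 arrays. The groups of Rab22a did not overlap, so the direction of the genes most like it follows from how they were picked. An r over 0.9 was met by 83 genes for Rab22a and by 16 for Rab17.

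Array medians lay between 4.58 and 4.64 and RNA integrity numbers between 9.7 and 10. Of 15 melanocyte markers 4 were measured, all above the receptor gauge, with mean log2 signals per array from 10.94 to 11.17 in siDicer and from 10.96 to 11.18 in siScr cells and 0 past the threshold. Immune markers were lower in siDicer, at 4.27 to 4.37 against 4.45 to 4.48 in siScr cells over 6 of 9 genes. Ptprc and Cd48 lay below the gauge, and 0 passed the threshold. C1qa, C1qb, Fcer1g and Laptm5 were lower in all 3 pairs, without overlap of the groups. Groups that do not overlap with siDicer lower were found for 8.29% of all probe sets and for 41 of 429 receptor genes. These 4 markers lay 0.77 to 1.17 log2 units above the gauge. Their unadjusted p ran from 0.01 to 0.0468 and their adjusted p from 0.176 to 0.311 in limma with the block. Fibroblast markers lay at 6.11 to 6.35 in siDicer and 5.95 to 6.22 in siScr cells over 3 of 9 genes, 0 past the threshold. Their mean was higher in siDicer in each pair, by 0.15, 0.13 and 0.16. Col5a1 and Postn were higher in all 3 pairs, but their groups overlapped. Their unadjusted p was 0.0122 and 0.00402 and their adjusted p 0.186 and 0.125 in limma with the block. Without the block their unadjusted p was 0.0996 and 0.145 in limma. Col3a1 was flat, at -0.001 (limma with the block, unadjusted p = 0.979). Of 3 measured Schwann and glia markers, Cdh19 rose by 0.55 and Pmp2 fell by 0.95 on the log2 scale (limma, adjusted p of 0.0304 and 0.0209 with the block, 0.138 and 0.114 without it), and the mean log2 signals per array were 6.80 to 7.08 in siDicer and 6.98 to 7.32 in siScr cells. Sox2 was lower in all 3 pairs, with a difference of -0.21 (limma with the block, unadjusted p = 0.018, adjusted p = 0.221). The part of all these markers in the values of the Rab genes was not tested. In bulk RNA fewer cells of a type and less RNA per cell cannot be told apart.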

How the data were processed

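The authors deposited 1 log2 signal for each probe set and array. The submitters' processing notes name Affymetrix Expression Console; its version and normalization method are not stated there. Of 16383 probe sets 7530 had 1 symbol, and 170 more carried several spellings of 1 gene and were named; symbols of 230 were updated through Entrez numbers. Of 7700 named probe sets 7564 lie on chromosomes 1 to 4, so results cover these chromosomes. Groups were compared in limma 3.58.1 (R 4.3.3; lmFit, eBayes without trend), siDicer minus siScr, with replicate number as a block, because the rule for these genes pairs arrays by number and same-numbered arrays share a passage; their deviations from group means correlated with r of 0.436, 0.406 and 0.24. P-values were adjusted by Benjamini-Hochberg over all probe sets, at a threshold of 0.05. The procedure was tested on simulated data. The number of arrays limits the precision. Replicates are called biological in the series' design text, and whether they were separate cultures beyond passage is not stated. Members and lists were chosen with earlier results of these data known. Text names the members, other Rab GTPases, in each list the genes past the threshold and the 3 with the smallest p, and 3 genes most like Rab22a and Rab17; Icmt and the marker genes were named after their values were seen. Alternatives were no block, other normalizations, fewer probe sets, an intensity trend, array weights, a threshold of 0.1, leaving out each pair, and exact permutation tests. Promoters are from RefSeq, GRCm38.p6.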

Additional observations from a re-analysis of the deposited data

How the results depend on the processing

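Probe sets past the threshold numbered 163 with the replicate block, and 35 with no replicate block, 84 after quantile and 93 after cyclic loess normalization. They numbered 388 and 281 when fewer probe sets were tested (level above the median, 1 symbol), 302 with an intensity trend and 378 at a threshold of 0.1. Leaving out 1 pair gave 0 to 157, with 2171 and 1814 at an unadjusted p under 0.05 in limma without replicate 2 and without replicate 3, where the count was 0. Member genes past the threshold numbered 0, and 1, Rab22a, with level above the median, with 1 symbol, with an intensity trend and at a threshold of 0.1; the same 4 settings gave 1 other Rab GTPase, Rab2a. Regulators past the threshold numbered 1, Dennd1b, and 0 with no replicate block; leaving out 1 pair gave 0 to 1. Rab13 turned to -0.026 and -0.008 and Rab33b to -0.033 and -0.027 after quantile and cyclic loess normalization, and with 1 pair left out Rab13 ran from -0.014 to 0.038 and Rab33b from -0.051 to 0.046. In the 12 alternatives that refitted them, the 6 other members kept their sign, and the block changed no member's call. Where fewer probe sets or arrays entered, the construction changed the adjustment, the variance estimated across probe sets or the residual degrees of freedom. Otherwise the cause was not tested. Averaging several probe sets was not run, since each member had 1. Signals near the receptor gauge limit Rab42.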
